A study of Mus musculus with 2 samples.

Results

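The clusters of Mir23a, Mir27a and Mir24-2 on mouse chromosome 8 and of Mir23b, Mir27b and Mir24-1 on chromosome 13 are paralogous copies of the same 3 microRNA genes, in the same order. The members were the 6 genes of these names, found by their symbols in the GENCODE M21 annotation and matched to the counted Ensembl identifiers. Of the 6 symbols, 5 matched 1 of the 1973 counted genes and Mir24-1 did not, so Mir24-1 was not analysed here. RNA shorter than 30 nucleotides had been selected from livers of B6NCrl mouse embryos of 11.5 days, from pools of male and female embryos, and sequenced as microRNA-seq. The 2 libraries, biological replicates 1 and 2, formed 1 group with no treatment and no mutation, and the pool of replicate 1 held livers of 109 embryos. Reads assigned to a microRNA gene on its own strand numbered 1584499 in replicate 2 and 3344673 in replicate 1, and levels are given as counts per 1000000 of these (CPM).

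MicroRNAs of the miR-23, miR-27 and miR-24 families are cut from 1 transcript per cluster and repress messenger RNAs that pair with their seed, the bases near the 5′ end of the mature strand. In mouse liver stem cells the Mir23b cluster is known to repress Smad genes and with them the response to TGF-beta and BMP. The Mir23a cluster is known from blood, where the transcription factor PU.1 activates it and it restrains B cell formation in mice. Members of both clusters are expressed in endothelium and take part in vessel growth, and miR-24 is known in human cells to hold back red cell formation. The embryonic liver of this age contains hepatoblasts, blood precursors and endothelium. The counts come from the organ as a whole, so fewer cells of a type and less RNA per cell cannot be told apart.

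The mature strands are shown first, because their likeness decides which reads can be placed at 1 gene. All sequences are from RefSeq (GRCm38.p6, plus strand of each chromosome), written 5′ to 3′ with the seed, bases 2 to 8, in capitals. The 3p strands of miR-23a, miR-27a, miR-27b and miR-24 were:
miR-23a-3p: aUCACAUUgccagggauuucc
miR-27a-3p: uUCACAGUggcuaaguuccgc
miR-27b-3p: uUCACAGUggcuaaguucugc
miR-24-3p, from Mir24-2 and from Mir24-1: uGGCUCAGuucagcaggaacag
The 5p strands, which differ more between the clusters, were:
miR-23a-5p: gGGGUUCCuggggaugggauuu
miR-23b-5p: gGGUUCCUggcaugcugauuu
miR-27a-5p: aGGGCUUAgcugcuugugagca
miR-27b-5p: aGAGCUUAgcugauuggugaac
miR-24-2-5p: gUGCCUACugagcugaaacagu
miR-24-1-5p: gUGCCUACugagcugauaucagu

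The mature 3p strands of Mir27a and Mir27b have the same seed and 1 substitution, C19U, counted from 1 at the 5′ end of miR-27a-3p. Their 5p strands differ at 8 of 22 bases and in their seeds. The 22 bases of miR-24-3p are the same from both loci, while miR-24-1-5p and miR-24-2-5p are the same over the first 16 bases. The seed of miR-27 was held by 2 mature strands of the table, those of Mir27a and Mir27b. The seed of miR-24-3p was held by 5, of which the 4 outside the clusters, from Mir5124b, Mir6369, Mir6410 and Mir6413, came from genes with 0 counts in both libraries, which leaves room for at most 1.89 CPM (replicate 2) and 0.897 CPM (replicate 1).

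The hairpins are shown with the longest run that each shares with its paralogue in capitals, since a read inside that run matches both loci:
Mir23a: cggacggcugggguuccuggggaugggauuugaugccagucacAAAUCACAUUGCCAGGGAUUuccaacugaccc
Mir23b: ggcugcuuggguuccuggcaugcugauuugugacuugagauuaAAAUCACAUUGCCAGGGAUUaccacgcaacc
Mir27a: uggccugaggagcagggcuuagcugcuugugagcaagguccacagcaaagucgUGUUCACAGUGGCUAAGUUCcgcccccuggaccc
Mir27b: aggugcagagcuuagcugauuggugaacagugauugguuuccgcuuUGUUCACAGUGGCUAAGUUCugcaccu
Mir24-2: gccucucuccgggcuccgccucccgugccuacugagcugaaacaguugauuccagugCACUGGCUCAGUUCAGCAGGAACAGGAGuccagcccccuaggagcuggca
Mir24-1: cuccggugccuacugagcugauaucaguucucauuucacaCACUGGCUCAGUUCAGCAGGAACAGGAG
The run is 20 bases between Mir23a and Mir23b, 20 bases between Mir27a and Mir27b and 28 bases between Mir24-2 and Mir24-1. Of the mature strands printed above, miR-24-3p was the only one that lay whole inside such a run. The mature strands miR-23a-3p and miR-27a-3p, of 21 bases each, run in the paralogous hairpin for their first 18 bases. A full read of miR-23a-3p, miR-27a-3p or miR-27b-3p therefore matches its own hairpin alone within each pair, while a read of miR-24-3p matches both hairpins of its pair. The 3p strand of Mir23b is miR-23b-3p, whose mature sequence was not given in the sources used here. Where it ends relative to the shared run was therefore not shown. The hairpins of Mir23a and Mir23b differ at the first base after their shared run, and a read that ends inside the run matches both. The same holds for Mir27a and Mir27b. Over the whole hairpin, Mir23a and Mir23b were 72.2% identical, Mir27a and Mir27b 59.6%, and Mir24-2 and Mir24-1 54.5% in a global alignment. Against hairpins outside the clusters on the same strand, no member shared a run of more than 13 bases.

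Reads that map to several places were not assigned to a gene and made up 22.6% of the reads of replicate 2 and 22.0% of those of replicate 1. For each assigned read there were 0.779 such reads in replicate 2 and 0.839 in replicate 1. How many of them are reads of miR-24-3p cannot be told from the counts, which give 1 number per gene and do not separate the 5p from the 3p strand.

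In mm10 coordinates the Mir23a cluster covers 404 bases of chromosome 8, from 84208518 to 84208921 on the plus strand. Mir23a (84208518 to 84208592) and Mir27a (84208672 to 84208758) lie over no other M21 gene. Mir24-2 (84208815 to 84208921) overlaps the start of the long noncoding RNA Gm26532 by 2 bases on the same strand. Mir3074-2 lies antisense over 83 of its bases. The Mir23b cluster covers 792 bases of chromosome 13, from 63300484 to 63301275, also on the plus strand. It lies inside the protein-coding gene 2010111I01Rik on the same strand, and inside Fancc, a Fanconi anaemia gene, on the other strand. Mir23b (63300484 to 63300557) is intronic in both. Mir27b (63300712 to 63300784) and Mir24-1 (63301208 to 63301275) lie in annotated exons of 2010111I01Rik and in introns of Fancc. The gaps between hairpins are 79 and 56 bases in the Mir23a cluster and 154 and 423 bases in the Mir23b cluster.

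**Figure D1:**
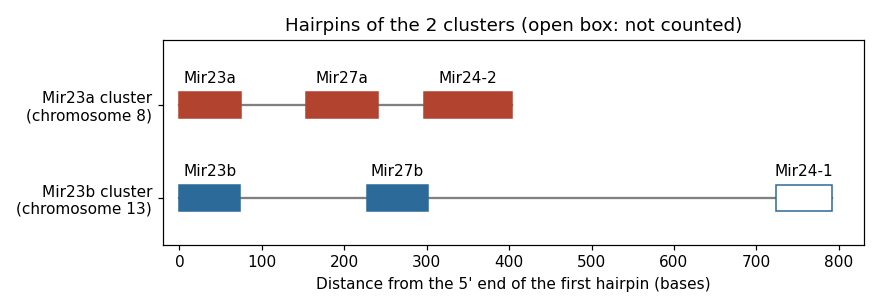
Position of the hairpins, drawn to scale as distance in bases from the 5′ end of the first hairpin, for the Mir23a cluster (red) and the Mir23b cluster (blue). The Mir23a cluster is the shorter, 404 against 792 bases, and the open box marks Mir24-1, which was not analysed.

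The 5 counted members passed the detection limit of 10 counts in both libraries and together held 2.75% of the assigned counts of replicate 2 and 2.26% of those of replicate 1 (2.51 ± 0.352%, SD, n = 2). Nearly all of this came from Mir23a and Mir23b, while Mir27a and Mir27b were lower by an order of magnitude or more. Mir24-2 was low too in reads that could be placed, a count that leaves out reads of miR-24-3p. The Mir23a cluster held 1.57% (95% exact Clopper-Pearson interval 1.55 to 1.59) in replicate 2 and 1.10% (1.09 to 1.11) in replicate 1. The Mir23b cluster, without Mir24-1, held 1.19% (1.17 to 1.20) in replicate 2 and 1.15% (1.14 to 1.17) in replicate 1. Intervals and detection limits cover counting error only.

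Mir23a (ENSMUSG00000065611.1) had 24005 counts, or 15150 CPM, in replicate 2 and 35860 counts, or 10722 CPM, in replicate 1. Mir23b (ENSMUSG00000065599.1) had 17167 counts, or 10834 CPM, in replicate 2 and 36748 counts, or 10987 CPM, in replicate 1. The 2 libraries lay further apart for Mir23a, with a mean of 12936 ± 3131 CPM, than for Mir23b, with 10911 ± 108 CPM (SD, n = 2 each). By mean level Mir23a ranked 22 and Mir23b 24 among the 1973 genes. The ranges of Mir23a and Mir23b over the libraries overlapped, so their order was not resolved.

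Mir27a (ENSMUSG00000065444.1), of the family known in mouse and human cells to repress regulators of fat cell formation and the blood transcription factor Runx1, had 460 counts, or 290 CPM, in replicate 2 and 481 counts, or 144 CPM, in replicate 1. Mir27b (ENSMUSG00000065475.1), of the same seed, had 1647 counts, or 1039 CPM, in replicate 2 and 1861 counts, or 556 CPM, in replicate 1. Both Mir27 genes stood higher in replicate 2, and the lower value of Mir27b lay above the higher value of Mir27a. The means were 217 ± 104 CPM for Mir27a, rank 182, and 798 ± 342 CPM for Mir27b, rank 129 (SD, n = 2 each).

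Mir24-2 (ENSMUSG00000065541.1) had 365 counts, or 230 CPM, in replicate 2 and 513 counts, or 153 CPM, in replicate 1. This gave a mean of 192 ± 54.4 CPM (SD, n = 2) and rank 193. Its range overlapped that of Mir27a, so the order of these 2 genes was not resolved. Reads of miR-24-3p match both loci, as the hairpins above show, so this level leaves out any read that lies inside the shared run and can be too low. Of 916 counted genes with a mature strand in the table, 82 shared an identical mature strand with another gene, and 11 of these had a higher mean than Mir24-2. The median mean level was 6.64 CPM over these 82 genes and 1.06 CPM over the other 834.

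At the locus of Mir24-1 the counted identifier was ENSMUSG00000092741.1, which is Mir3074-1 in M21, a gene on the minus strand over the whole Mir24-1 hairpin. It had 313 reads, or 198 CPM, in replicate 2 and 666 reads, or 199 CPM, in replicate 1 on the strand it was counted on. A further 58 and 57 reads in replicates 2 and 1 fell on the opposite strand. M21 gives version 2 of this identifier, and the strand of the counted version was not given in the sources used here, so neither set of reads is assigned to Mir24-1. Reads on the opposite strand of the 5 counted members were few: 1 and 3 at Mir24-2 in replicates 2 and 1, 1 and 0 at Mir27b, and 0 in both libraries at Mir23a, Mir23b and Mir27a.

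**Figure D2:**
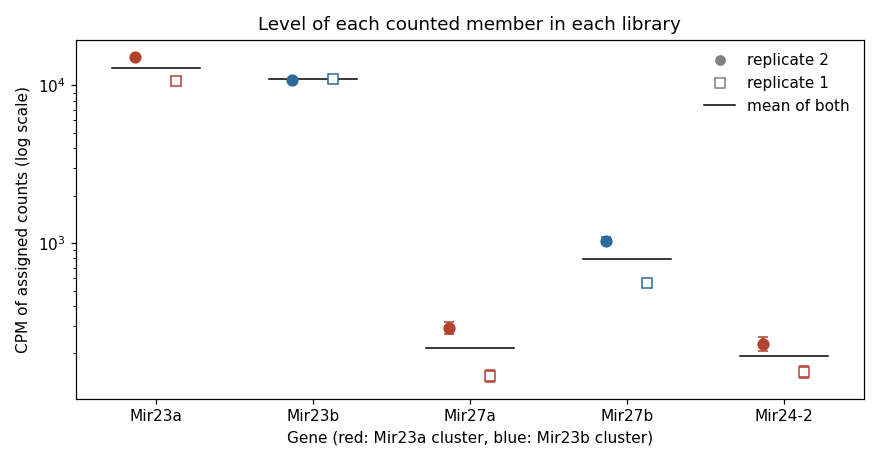
CPM of assigned counts on a log axis for the 5 counted members, in replicate 2 (filled circles) and replicate 1 (open squares), with 95% exact Clopper-Pearson intervals and the mean of both as a line. Mir23a and Mir23b lie near each other at 12936 and 10911 CPM on average, Mir27b lies above Mir27a in both libraries, and Mir24-2 lies beside Mir27a.

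In the order of all genes, each member is given with the genes directly above and below it. These are close in mean by construction, so differences within the spread are no result. Mir23a lay between Mir93, of the Mir106b cluster, at 13403 ± 4006 CPM and Mir30a at 11014 ± 4817 CPM (SD, n = 2 each). Mir23b lay between Mir30a and Mir18, of the Mir17 cluster, at 10902 ± 1090 CPM. Mir27b lay between Mir125b-1 at 798 ± 51.7 CPM and Mir3071 at 797 ± 116 CPM. Mir27a lay between Mir92b at 229 ± 33.3 CPM and Mir500 at 215 ± 14.7 CPM, and Mir24-2 between Mir302c at 193 ± 33.7 CPM and Mir668 at 182 ± 89.2 CPM (SD, n = 2 each). With 2 libraries a correlation between genes takes only its extreme values, so no gene is named for a pattern like that of a member.

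**Figure D3:**
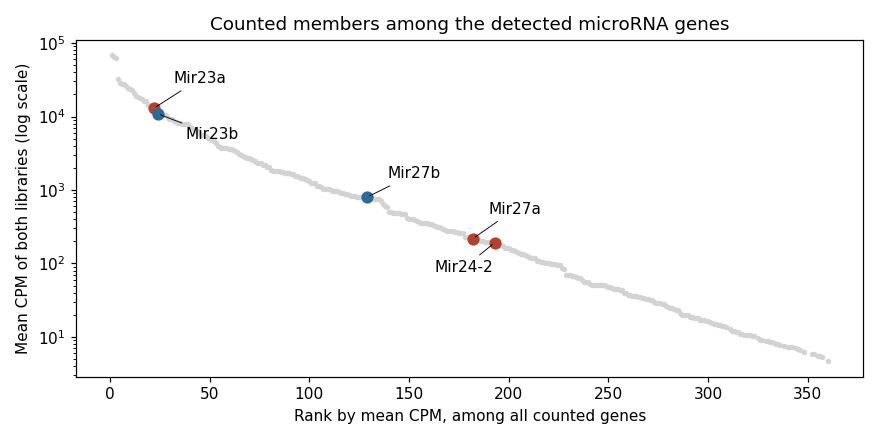
Mean CPM of both libraries on a log axis against rank, for all genes with at least 10 counts in both libraries (grey) and the 5 counted members (red for the Mir23a cluster, blue for the Mir23b cluster). Mir23a and Mir23b stand at ranks 22 and 24, and Mir27b, Mir27a and Mir24-2 at 129, 182 and 193.

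The levels of the clusters were compared within each library, where scaling cancels. Because Mir24-1 was not analysed, the summed counts of Mir23a and Mir27a were set over those of Mir23b and Mir27b. The libraries differed in direction: the ratio was 1.30 (95% exact counting interval 1.28 to 1.33) in replicate 2 and 0.941 (0.928 to 0.955) in replicate 1. Mir23a made up 98.1 and 98.7% of its sum and Mir23b 91.2 and 95.2% of the other, in replicates 2 and 1. The ratio therefore mainly reflects the Mir23 genes. The Mir23a cluster was the higher in replicate 2 and the lower in replicate 1, and the mean log2 ratio was 0.15 ± 0.33 (SD, n = 2), smaller than its spread. The exact sign-flip test over 2 libraries cannot go below a two-sided p of 0.5, so no ratio was tested.

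Of the pairs of single genes, only the Mir27 pair had a ratio on the same side of level in both libraries. Mir23a over Mir23b was 1.40 (1.37 to 1.43) in replicate 2 and 0.976 (0.962 to 0.99) in replicate 1, with a mean log2 ratio of 0.22 ± 0.37 (SD, n = 2). Mir27a over Mir27b was 0.279 (0.251 to 0.310) in replicate 2 and 0.258 (0.233 to 0.286) in replicate 1, with a mean log2 ratio of -1.90 ± 0.08 (SD, n = 2). Mir27a was thus lower than Mir27b by 3.58-fold in replicate 2 and 3.87-fold in replicate 1. This difference was larger than the spread between the libraries, while that of Mir23a and Mir23b was not. Reads that end inside the run shared by the Mir27 hairpins match both loci, so both Mir27 counts can be too low. The part of such reads in this ratio was not tested.

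Within a cluster the counts of Mir23 and Mir27 genes were far from level. Mir23a had 52.2 times the counts of Mir27a in replicate 2 and 74.6 times in replicate 1. Against Mir24-2 it had 65.8 times the counts in replicate 2 and 69.9 times in replicate 1, but the count of Mir24-2 leaves out reads of miR-24-3p, so this ratio can be too high. Mir23b had 10.4 times the counts of Mir27b in replicate 2 and 19.7 times in replicate 1. Reads inside the shared runs of the Mir23 and Mir27 hairpins match both loci, and their part in these ratios was not tested. The share of Mir23b in the summed counts of Mir23b and Mir27b was 91.2% (90.8 to 91.6) in replicate 2 and 95.2% (94.96 to 95.39) in replicate 1, intervals that do not overlap. The efficiency with which each strand was ligated and amplified was not measured, and its part in these ratios between genes was not tested.

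Other microRNA families that exist as paralogous cluster pairs were measured the same way. Mir15a and Mir16-1 over Mir15b and Mir16-2, which restrain the cell cycle, gave 2.53 in replicate 2 and 2.61 in replicate 1. Mir29a and Mir29b-1 over Mir29c and Mir29b-2, which repress collagens, gave 4.56 in replicate 2 and 5.87 in replicate 1. Mir181a-1 and Mir181b-1 over Mir181a-2 and Mir181b-2, known from lymphocyte development, gave 0.895 in replicate 2 and 0.401 in replicate 1. The mean log2 ratios were 1.36 ± 0.03, 2.37 ± 0.26 and -0.74 ± 0.82 in that order (SD, n = 2 each), against 0.15 ± 0.33 for the Mir23a over the Mir23b cluster. Each of these families holds genes with an identical mature strand at another locus, so their sums leave out reads that match both, and the differences between families were not tested.

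**Figure D4:**
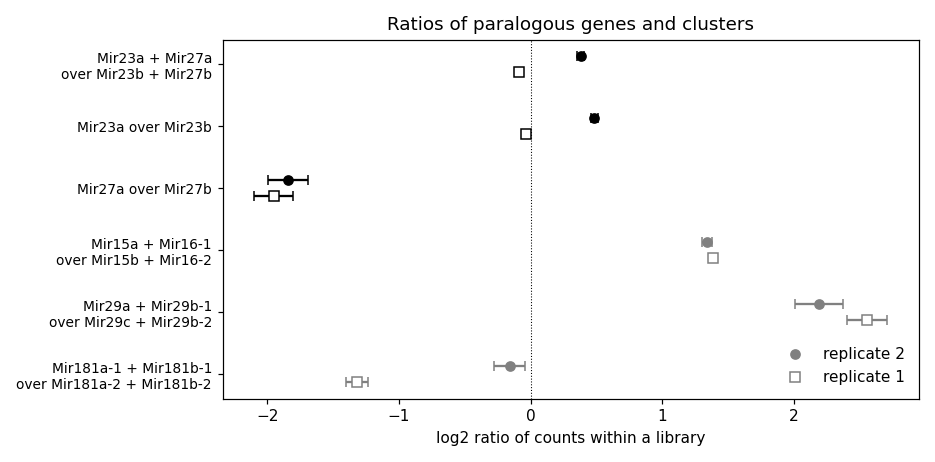
log2 ratio of counts within a library for paralogous genes and clusters, in replicate 2 (filled circles) and replicate 1 (open squares), with 95% counting intervals, for the Mir23 and Mir27 genes (black) and other cluster pairs (grey). The Mir23a over Mir23b ratio lies on both sides of 0, while Mir27a over Mir27b lies near -1.90 in both libraries.

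Between the pools, the 5 counted members were all higher in replicate 2 under TMM (trimmed mean of M values) scaling, with log2 ratios of replicate 2 over replicate 1 from 0.04 to 1.08. For Mir23b the sign depended on the scaling, with -0.020 when the total of assigned counts was used. Each gene was put to an exact binomial test, two-sided, with Benjamini-Hochberg adjustment over the 454 genes that reached 10 summed counts. A gene was called where the adjusted p was under 0.05 and the libraries were 2-fold or more apart. The test knows counting noise only and compares these libraries, not conditions. In all, 33 genes (7.27%) were called, 22 of them (4.85%) higher in replicate 2. Of the 5 members 1 was called, Mir27a, with a log2 ratio of 1.08 and an adjusted p of 1.36e-28. Mir27b, with a log2 ratio of 0.96 and an adjusted p of 3.87e-83, lay just under 2-fold. Mir24-2 had a log2 ratio of 0.65 with an adjusted p of 4.42e-10, and Mir23a one of 0.56 with an adjusted p too small to be computed. Mir23b had a log2 ratio of 0.04 and an adjusted p of 0.00466.

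An adjusted p under 0.05 at any fold was held by 223 of the 454 genes (49.1%), so the 5 of 5 members under it are read against this share. The share includes genes of low count, where the exact binomial test reaches a small p less easily. It was not computed for genes with counts like those of the members. The median log2 ratio was 0.65 over the members and 0.01 over all tested genes. Among the 257 genes whose mean count reached 100, 14 (5.45%) were called, against 1 of the 5 members, all of which reached that count. The median size of the log2 ratio over these 257 genes was 0.35, and 9 genes had a higher log2 ratio than Mir27a and 12 a higher one than Mir27b. The Mir27 genes, on separate chromosomes, were 2.11-fold and 1.95-fold higher in replicate 2 for Mir27a and Mir27b. Mir23b, beside Mir27b, was within 1.03-fold. In the cluster of Mir27a, Mir23a was 1.47-fold and Mir24-2 1.57-fold higher in replicate 2.

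**Figure D5:**
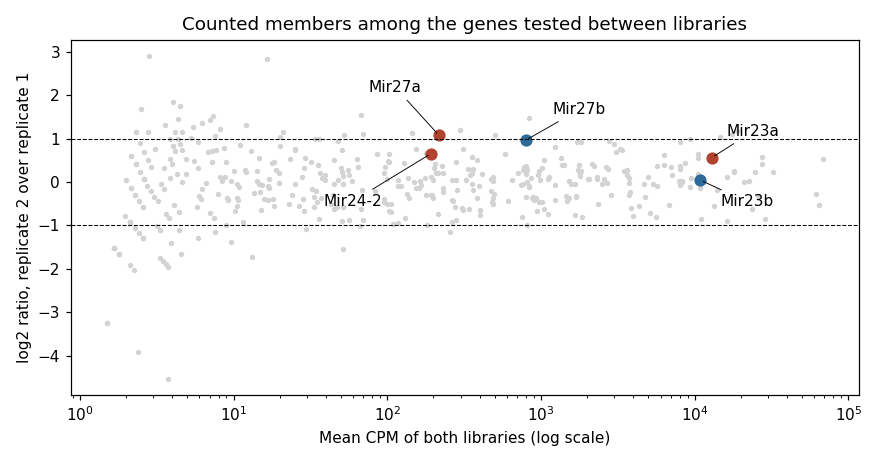
log2 ratio of replicate 2 over replicate 1 against mean CPM (log axis) for the 454 tested genes (grey) and the 5 counted members (red for the Mir23a cluster, blue for the Mir23b cluster). The dashed lines mark 2-fold; Mir27a lies just outside and Mir27b just inside the upper line, and Mir23b lies near 0.

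MicroRNAs known from vessels, a setting in which both clusters act, were given by 15 symbols, of which 14 were counted and 13 detected. They held 15.3% of the counts of replicate 2 and 12.4% of those of replicate 1, the largest part from the endothelial gene Mir126a, with 80051 and 57443 CPM in replicates 2 and 1. Of the 14, 3 had a higher mean than Mir23a and than Mir23b: Mir126a, Mir130a at 24623 ± 1957 CPM and Mir10a at 16146 ± 419 CPM (SD, n = 2 each). Between the libraries, the exact binomial test called 0 of these 14 genes, against 7.27% of all tested genes. An unadjusted p under 0.05 was held by 10 of the 14, against 53.5% of all tested genes, a share that includes genes of low count. The median log2 ratio of the 14 was 0.08. Mir126a had a log2 ratio of 0.54, and the members ran from 0.04 for Mir23b to 1.08 for Mir27a. The labelled tissue was checked on hepatocyte microRNAs, of which 4 of 6 were detected, at 3.81% of the counts in replicate 2 and 3.48% in replicate 1. Mir122, the leading hepatocyte microRNA, made up 3.45 and 3.07% of the counts, and the other 5 genes of the list 0.361 and 0.409%, in replicates 2 and 1. The median log2 ratio of the hepatocyte list was -0.37, with 2 of 6 genes above 0. Erythroid microRNAs held 1.14 and 0.833%, leukocyte microRNAs 0.821 and 1.05% and mesenchymal and smooth muscle ones 3.34 and 2.25%, in replicates 2 and 1. Striated muscle ones held 0.0797 and 0.0884% and neural ones 0.0265 and 0.0406%, in the same order. The median log2 ratio was 0.45 for the erythroid list, with 2 of 3 genes above 0, and -0.52 for the leukocyte list, with 1 of 5. Over the tested genes it was 0.03 for the striated muscle list and -0.52 for the neural list. The leukocyte share leaves out Mir142, which was not counted. Mir142b had 62714 and 140377 reads on its opposite strand in replicates 2 and 1, which no share includes. Reads that match several genes were not assigned, so lists with several copies of 1 microRNA can be too low. Such copies include Mir133a-1 and Mir133a-2, each with 0 counts in both libraries. In the mesenchymal and smooth muscle list Mir143 made up 2.36 and 1.15% of the counts and the other 5 genes 0.976 and 1.11%, in replicates 2 and 1, with 3 of 6 genes above 0 and a median log2 ratio of -0.02. The part of these cell types in the levels of the members was not tested.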

How the data were processed

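The authors deposited raw read counts for each microRNA gene and library, as whole numbers in 3 columns: either strand, the strand of the gene and the opposite strand. The assembly was mm10 and the annotation GENCODE M4, per the text deposited with the files. The meaning of the columns was read from their layout, with the aligner, the counter and adapter removal not given in the sources used here. The 4 summary classes (unmapped, several places, no feature, ambiguous) stayed out of library sizes: 29.0% of 5471247 reads in replicate 2 and 26.2% of 12750572 in replicate 1 were assigned. Symbols came from GENCODE M21 (same assembly) by identifier without version, for 1894 of 1973 genes. Sequences came from RefSeq (GRCm38.p6).

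CPM is the same-strand count of a gene per 1000000 same-strand counts of all genes. The planned sums held 3 genes per cluster. With Mir24-1 not analysed, Mir24-2 was left out of the ratio of the clusters, and no Mir24 ratio was formed. TMM factors were from edgeR 4.0.16 over the tested genes, and size factors for an alternative from DESeq2 1.42.0 (R 4.3.3). For log2 ratios between libraries 0.5 was added to each count. Binomial tests and intervals were from scipy 1.17.1 in Python 3.11.15. Members, lists and tests were chosen with earlier results of these data known. Named genes were the members, genes over them, rank neighbours and genes of the lists, and the seed mates and Mir142b were added after.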

Additional observations from a re-analysis of the deposited data

Results flagged for a closer look

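Reads on the strand opposite to the counted identifier at the Mir24-1 locus, a column outside the main measurement, numbered 58 in replicate 2 and 57 in replicate 1. Both lie above the 3 counts that a count of 0 allows. Groups of 2 libraries are too small to be searched for a library that stands apart.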

How the results depend on the processing

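The ratios of the clusters and pairs do not depend on scaling. Over single libraries the log2 ratio of Mir23a and Mir27a over Mir23b and Mir27b ran from -0.09 to 0.38, that of Mir23a over Mir23b from -0.04 to 0.48 and that of Mir27a over Mir27b from -1.95 to -1.84. The share of the 5 counted members ran from 2.26 to 2.75%, and fell to 0.695% with all reads as the denominator, by construction. Requiring 100 summed counts left 15 genes called in place of 33, with fewer genes tested. The log2 ratio between libraries of Mir23b turned to -0.020 with the total of assigned counts, while the other 4 members kept their direction under TMM, total and DESeq2 scaling. That of Mir27a was 1.01 with the total of assigned counts, still just past 2-fold. Adding Mir24-2 to the Mir23a cluster, with or without the row at the Mir24-1 locus in the other, was chosen after the data were seen, and gave a log2 ratio that moved by less than its SD. No paired analysis was possible because the libraries formed a single group. No ratio of Mir24-2 over Mir24-1 was run. A count of 0 leaves room for 1.89 CPM (replicate 2) and 0.897 CPM (replicate 1).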
